A study of Mus musculus with 9 samples.

Results

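The genes described here are 10 mouse CC chemokines known for drawing monocytes and other leukocytes: Ccl2, Ccl3, Ccl4, Ccl5, Ccl6, Ccl7, Ccl9, Ccl12, Ccl17 and Ccl22. They were chosen by name, with earlier results of these data known, from tables that listed 21936 genes in tumour cells and 22060 genes in macrophages, and all 10 were found in both. RNA was sequenced from 9 cultures of mouse cells of strain C57BL, with 1 library per group. The 4 macrophage libraries were of bone-marrow-derived macrophages (BMDM) of the kinds named GM-BMDM and M-BMDM, each untreated or after 4 h of tunicamycin, a drug that blocks N-linked glycosylation and so stresses the endoplasmic reticulum. The 5 tumour libraries came from the mouse tumour line LLC (Lewis lung carcinoma), left untreated or cultured for 24 h in medium conditioned by macrophages of either kind for 16 h. Before conditioning, the macrophages had been kept without tunicamycin (unstressed medium) or with it for 12 h and then washed (stressed medium). The feeding of the untreated LLC cells is not given in the labels, so an effect of medium cannot be told apart from that of feeding.

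CC chemokines are small secreted proteins that bind G protein-coupled receptors on leukocytes and steer their migration. Ccl2, Ccl7 and Ccl12 act on the receptor Ccr2 and release and recruit inflammatory monocytes, while Ccl3, Ccl4 and Ccl5 are inflammatory chemokines, of which Ccl3 and Ccl5 act on Ccr1. Ccl6 and Ccl9 are rodent ligands of Ccr1, and Ccl17 and Ccl22, made by dendritic cells and alternatively activated macrophages, attract T cells that carry Ccr4. In tumours, Ccl2 made by the cancer cells is known for the recruitment of monocytes that become macrophages.

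The genes lie in 3 groups of neighbours in GRCm38. On chromosome 11, Ccl2 (chr11:82035571-82037453), Ccl7 (chr11:82045712-82047525) and Ccl12 (chr11:82101845-82103400) lie on the plus strand. Farther along that chromosome, Ccl5 (chr11:83525778-83530518), Ccl9 (chr11:83572919-83578636), Ccl6 (chr11:83587882-83593087) and Ccl3 (chr11:83647844-83649355) lie on the minus strand and Ccl4 (chr11:83662584-83664683) on the plus strand. Ccl22 (chr8:94745590-94751699) and Ccl17 (chr8:94810453-94812036) lie on the plus strand of chromosome 8. No exon of the 10 genes overlapped an exon of another gene. Of the 31-base stretches in their transcripts, none was shared between 2 of the 10 genes, and the share found in any other gene was 0.539% for Ccl5, 1.02% for Ccl6, 3.98% for Ccl9 and 0% for the other members.

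Sequence before the gene start is shown for the pair that differed most between the macrophage kinds, Ccl17 and Ccl22, and for the adjacent pair Ccl6 and Ccl9, the most abundant members. The stretches end before the start of the gene and read 5′ to 3′ on the gene's strand, from RefSeq promoters of GRCm38.p6 (Ccl17 chr8:94810203-94810452 plus strand, Ccl22 chr8:94745434-94745589 plus strand, Ccl6 chr11:83593088-83593337 minus strand, Ccl9 chr11:83578637-83578886 minus strand). Capitals mark matches to the motifs listed after the sequences.
Ccl17: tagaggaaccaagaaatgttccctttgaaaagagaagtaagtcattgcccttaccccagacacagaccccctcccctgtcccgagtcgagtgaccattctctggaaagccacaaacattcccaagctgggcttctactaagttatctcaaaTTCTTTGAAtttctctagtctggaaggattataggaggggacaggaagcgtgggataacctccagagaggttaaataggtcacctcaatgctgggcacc
Ccl22: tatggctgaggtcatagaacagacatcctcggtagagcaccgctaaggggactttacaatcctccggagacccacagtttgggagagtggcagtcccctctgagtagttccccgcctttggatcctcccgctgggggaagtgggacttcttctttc
Ccl6: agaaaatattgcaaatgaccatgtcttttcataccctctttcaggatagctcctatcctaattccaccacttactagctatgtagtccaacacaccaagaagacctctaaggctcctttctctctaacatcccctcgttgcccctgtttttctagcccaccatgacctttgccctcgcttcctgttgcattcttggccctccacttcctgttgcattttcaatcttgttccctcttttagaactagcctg
Ccl9: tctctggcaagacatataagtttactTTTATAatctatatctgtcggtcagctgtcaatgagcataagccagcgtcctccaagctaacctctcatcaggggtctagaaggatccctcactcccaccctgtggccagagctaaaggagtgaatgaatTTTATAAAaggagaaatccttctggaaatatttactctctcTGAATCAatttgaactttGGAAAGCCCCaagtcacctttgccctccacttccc

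Promoter windows of 250 bases before to 50 bases after the start matched 6 of the 10 genes (Ccl3, Ccl6, Ccl9, Ccl12, Ccl17 and Ccl22). Of 7 motifs searched on both strands, Ccl17 held a STAT match (TTCNNNGAA, in 8.3% of all 32851 promoters) at -99 from the start. Ccl9 held matches to kB (GGG and TTCC spaced by 3 bases, 5.56%), AP-1 (TGANTCA, 7.81%) and the TATA box (TATAAA, 13.6%), of which the TATA matches on the 2 strands at -92 and -94 overlap. Ccl12 held a TATA match at -31. No window of the 6 held the C/EBP motif (TTGCNNAA, 10.8%), the interferon response motif (GAAA repeated after 2 bases, 3.44%) or the ATF4-C/EBP element (TGATGNAA, 3.97%). The Ccl6 and Ccl9 windows resembled each other around the start, with 58 of 74 aligned columns identical (78.4%), while none of the other pairs aligned over more than 35 columns. These matches describe letters in the windows and were not tied to the expression values.

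Assigned reads totalled 37695079 to 42751176 in the macrophage libraries and 15020068 to 17128471 in the LLC libraries. Levels are given as CPM, reads scaled to library size, or as FPKM, which also divides by gene length and is used to compare genes. With 1 library per group there is no replicate, so ratios of 2 libraries carry a 95% interval. Such intervals cover counting error alone, and PCR copies of a molecule can be counted as separate reads. In the counts of genes, higher or lower means that log2(CPM + 1) differed by at least 1. Genes whose mean over a table reached 1 CPM were compared, which kept all 10 chemokines among 11049 genes in macrophages and Ccl2 and Ccl7 among 11190 genes in LLC cells. All 12 macrophage markers listed were compared in BMDM (summed level 34744 to 54942 CPM). In LLC cells Ptprc, Adgre1, Tyrobp, Itgam, Mrc1 and C1qa had 0 reads in all 5 libraries, and the 12 macrophage markers summed to 15.4 to 26.1 CPM, with the highest sum in the untreated library. In LLC cells 2 of 5 epithelial markers (Krt8 and Krt18) passed the minimum level and Krt19 had 0 reads in every library. In bulk RNA, fewer cells of a type and less RNA per cell cannot be told apart.

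Macrophages of the 2 kinds were compared first. GM-BMDM devoted far more of their RNA to them: the 10 genes took 1.896% of assigned reads in untreated GM-BMDM and 1.763% with tunicamycin, against 0.1348% and 0.1034% in M-BMDM. The share of reads from mitochondrial genes moved with the kind, at 1.86% and 1.59% in GM-BMDM and 0.899% and 0.861% in M-BMDM, and its part in the differences between the kinds was not tested. Ccl6 made up most of the chemokine reads in GM-BMDM (85.58% and 85.85%) but not in M-BMDM (33.49% and 30.03%). It ranked 3rd among all genes by reads in both GM libraries, and 290th and 502nd in the M libraries. Without Ccl6 the other genes still took 0.2734% of reads in untreated GM-BMDM, against 0.08966% in the untreated M library.

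**Figure D1:**
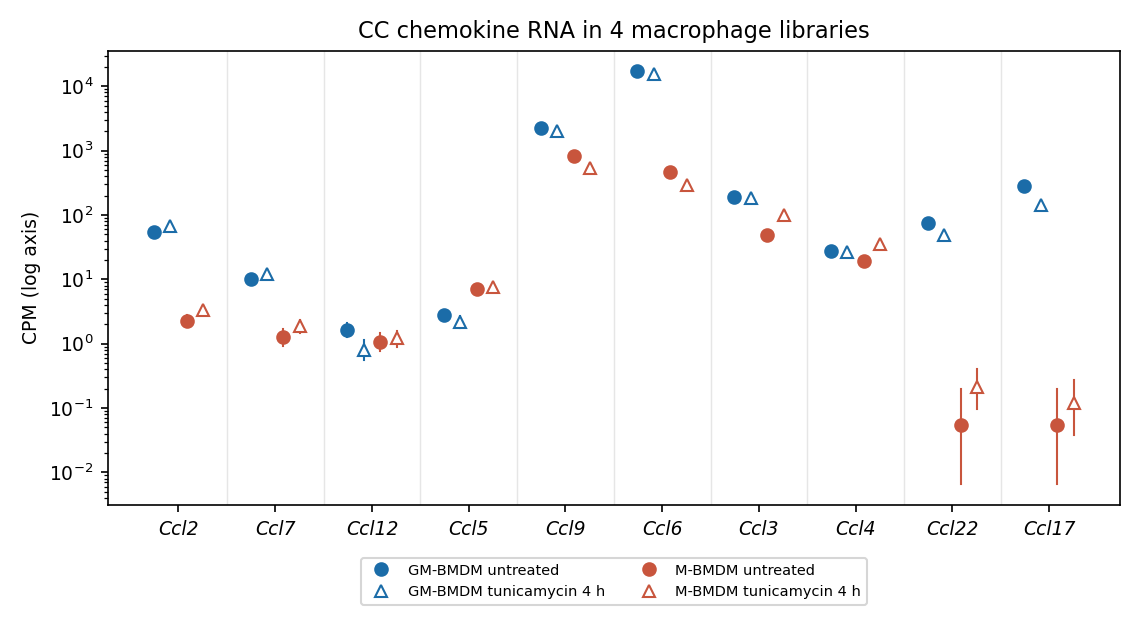
Level of each chemokine gene in CPM (log axis) in the 4 macrophage libraries, with circles for untreated cells, triangles for 4 h of tunicamycin, blue for GM-BMDM, red for M-BMDM and lines for the 95% counting interval. Ccl17 and Ccl22 stand at or below 0.213 CPM in both M libraries and at 47.9 CPM or more in both GM libraries, while Ccl5 is higher in the M libraries.

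Ccl17 and Ccl22 reached the minimum level only through the GM libraries, where they are high, and are left out of the counts between the kinds. Of the other 8 chemokines, 5 were higher in untreated GM-BMDM than in M-BMDM by 2-fold or more and 1 was lower, against 12.4% of all genes higher and 7.02% lower (19.4% in either direction). The median log2 difference was 1.70 over the 8 genes and -0.03 over all genes. With tunicamycin in both kinds, 4 were higher and 1 was lower, against 12.6% and 7.82% of all genes (20.4% in either direction), with medians of 1.40 and -0.04. The gene that left the count was Ccl3.

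Ccl17 and Ccl22, the ligands of Ccr4, differed most. Ccl17 stood at 286 CPM in untreated GM-BMDM, 141 CPM with tunicamycin, and 0.0537 and 0.118 CPM (2 and 5 reads) in the corresponding M libraries. Ccl22 stood at 75.8 and 47.9 CPM in GM-BMDM and at 0.0537 and 0.213 CPM (2 and 9 reads) in M-BMDM. Both genes were thus well expressed in the GM libraries and close to absent in the M libraries. The untreated ratio was 5332 for Ccl17 (1476 to 44032) and 1412 for Ccl22 (391 to 11664), and its wide interval rests on 2 reads. Levels of most dendritic cell markers were also above those of M-BMDM in the GM libraries. Of 9 listed 7 were compared, 2 of them (Zbtb46 and Cd209a) only through the GM libraries. The other 5 were above 0 in the untreated difference, 3 of them at least 2-fold, against 12.4% of all genes higher. With tunicamycin in both kinds 4 of the 5 were above 0, 2 of them at least 2-fold, against 12.6% of all genes higher. The 9 markers summed to 2349 and 1730 CPM in GM-BMDM against 624 and 474 CPM in M-BMDM. Their part in the chemokine difference was not tested.

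Ccl6 and Ccl9, the Ccr1 ligands, were abundant in both kinds. Ccl6 stood at 16970 CPM in untreated GM-BMDM and 15248 CPM with tunicamycin, and at 457 and 291 CPM in M-BMDM, an untreated ratio of 37.2 (36.6 to 37.7). Ccl9 stood at 2208 and 2034 CPM in GM-BMDM and at 828 and 528 CPM in M-BMDM, a ratio of 2.67 (2.63 to 2.70). These neighbouring genes therefore differed between the kinds by very different amounts. Per length, Ccl6 exceeded Ccl9 by 13.0 times in untreated GM-BMDM (12.9 to 13.1) and 12.7 times with tunicamycin, whereas in M-BMDM the ratio was 0.936 (0.918 to 0.953) and 0.936 with tunicamycin. Neutrophil markers moved with this difference. Of 8 listed 5 were compared, 2 of them (Ngp and Ltf) only through the GM libraries. The other 3 were higher in untreated GM-BMDM by 2-fold or more, against 12.4% of all genes. The 8 summed to 1677 and 1606 CPM in GM-BMDM against 50.2 and 31.4 CPM in M-BMDM. Most of that sum was the collagenase gene Mmp8, at 1459 CPM in untreated GM-BMDM. Mast cell, basophil and eosinophil markers, 3 compared of 6 listed and all through the GM libraries alone, summed to 137 and 105 CPM in GM-BMDM and to 1.66 and 1.28 CPM in M-BMDM. Of the 12 macrophage markers, 8 were below 0 in untreated GM-BMDM relative to M-BMDM and 4 above. By 2-fold 4 were lower and 1 was higher, against 7.02% and 12.4% of all genes. The 12 summed to 42919 and 40575 CPM in GM-BMDM and to 54942 and 34744 CPM in M-BMDM. The part of these marker groups was not tested.

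The ligands of Ccr2 were split. Ccl2 stood at 55.1 CPM in untreated GM-BMDM, 66.7 CPM with tunicamycin, and 2.28 and 3.29 CPM in M-BMDM, a ratio of 24.2 untreated (19.5 to 30.4). Ccl7 followed at 10.03 and 12.1 CPM against 1.26 and 1.85 CPM, a ratio of 7.96 (5.87 to 11.0). Ccl12, which lies beside them, stood at 1.61, 0.801, 1.07 and 1.21 CPM in the order GM untreated, GM with tunicamycin, M untreated and M with tunicamycin. Its ratio between untreated kinds, 1.504, had an interval that reached below 1 (0.999 to 2.29), so the 65 and 40 reads behind it do not separate the kinds.

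Among Ccl3, Ccl4 and Ccl5 the order of the kinds depended on the gene. Ccl3 stood at 193 and 183 CPM in GM-BMDM and at 48.2 and 101 CPM in M-BMDM, a ratio of 4.00 untreated (3.798 to 4.211) and 1.81 with tunicamycin (1.75 to 1.88). Ccl4 stood at 27.3 and 26.6 CPM in GM-BMDM and 18.9 and 35.9 CPM in M-BMDM, so the ratio was 1.44 untreated (1.31 to 1.58) and 0.741 with tunicamycin (0.685 to 0.801). Ccl5 was the one member at least 2-fold lower in GM-BMDM in both states, at 2.78 and 2.19 CPM against 7.08 and 7.65 CPM, a ratio of 0.393 untreated (0.312 to 0.492). Ccl3 exceeded Ccl4 per length by 6.09 times in GM-BMDM (5.72 to 6.50) and by 2.19 times in M-BMDM, both untreated (2.01 to 2.40).

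**Figure D2:**
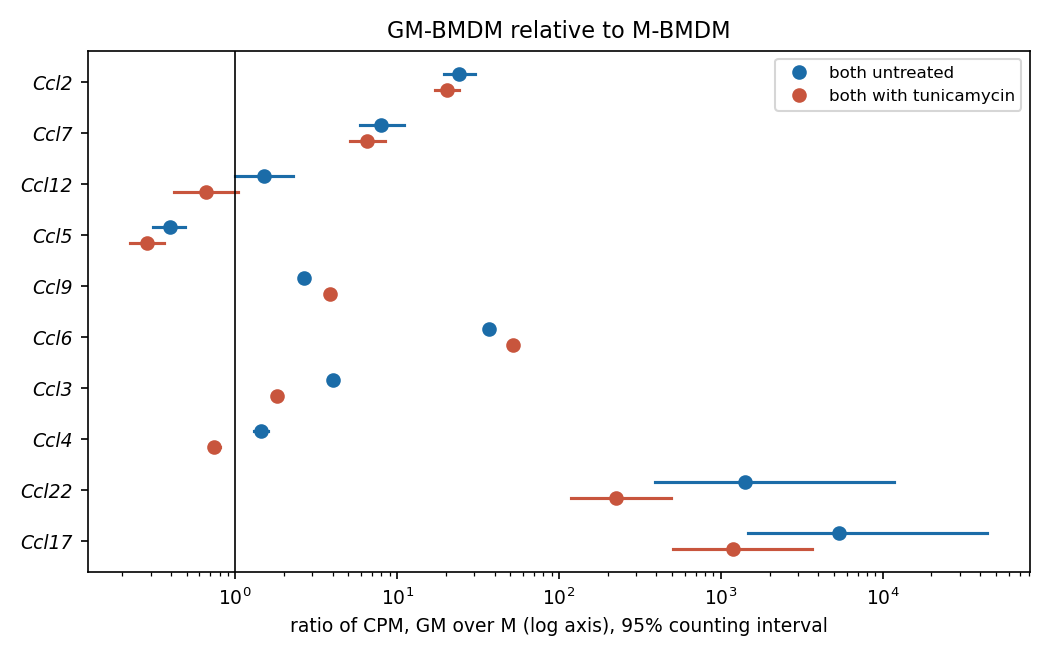
Ratio of CPM in GM-BMDM over M-BMDM for each gene (log axis; lines are 95% counting intervals), untreated in blue and with tunicamycin in red. Ccl17 and Ccl22 lie above 100 in both states, Ccl5 lies below 1 in both, and Ccl4 crosses from 1.44 to 0.741.

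The order of the members by FPKM differed accordingly. In untreated GM-BMDM it ran Ccl6 (9040 FPKM), Ccl9 (693), Ccl17 (532), Ccl3 (241), Ccl2 (46.3), Ccl4 (39.5), Ccl22 (31.2), Ccl7 (12.0), Ccl12 (2.87) and Ccl5 (2.77), and only the counting intervals of the last 2 overlapped. In untreated M-BMDM it ran Ccl9 (269 FPKM), Ccl6 (252), Ccl3 (62.2), Ccl4 (28.4), Ccl5 (7.30), Ccl2 and Ccl12 (1.98 each), Ccl7 (1.56), Ccl17 (0.103) and Ccl22 (0.0228). Ccl17 was thus the third most abundant of these chemokines in one kind and among the 2 lowest in the other.

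An additive fit over the 4 macrophage libraries, with kind and tunicamycin as terms, took the difference between the kinds' responses to tunicamycin as its error. In edgeR's quasi-likelihood test, adjusted over all genes by Benjamini-Hochberg, 5 of the 8 chemokines that reached the minimum level in both kinds rose in GM-BMDM and 1 fell, against 26.3% and 24.4% of all genes (50.7% in all). The log2 fold change was 5.48 ± 0.21 (SE) for Ccl6 (adjusted p = 1.8e-06) and 4.47 ± 0.16 for Ccl2 (adjusted p = 1.5e-06). Values of Ccl17 and Ccl22 from this test are not given, since the filter kept them for their level in GM-BMDM. Ccl7 rose by 2.85 ± 0.20 (adjusted p = 2.7e-05), Ccl9 by 1.70 ± 0.16 (0.00012) and Ccl3 by 1.44 ± 0.25 (0.0026), and Ccl5 had a log2 fold change of -1.56 ± 0.22 (adjusted p = 0.00086). Ccl4 (0.06, adjusted p = 0.85) and Ccl12 (0.04, adjusted p = 0.94) did not pass. DESeq2 called the same 6 of the 8 genes, against 41.7% of all genes. Nothing in the labels says that the libraries came from separate cultures, so these p-values measure only the spread between single libraries.

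The receptors of these chemokines also differed between the kinds. In the same fit Ccr1 and Ccr2 rose in GM-BMDM and Cx3cr1 fell. Ccr7 reached the minimum level only through the GM libraries and Ccr3 only through the M libraries. Ccr1, the receptor of Ccl6 and Ccl9, stood at 440 and 449 CPM in GM-BMDM and 2.44 and 2.87 CPM in M-BMDM, so ligands and receptor were high in the same libraries. Ccr2 stood at 194 and 187 CPM in GM-BMDM against 42.5 and 26.0 CPM in M-BMDM. Cx3cr1, the fractalkine receptor of resident monocytes and macrophages, went the other way, at 1.61 and 2.50 CPM in GM-BMDM and 21.5 and 34.2 CPM in M-BMDM. Ccr4, the receptor of Ccl17 and Ccl22, did not pass the minimum level.

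**Figure D3:**
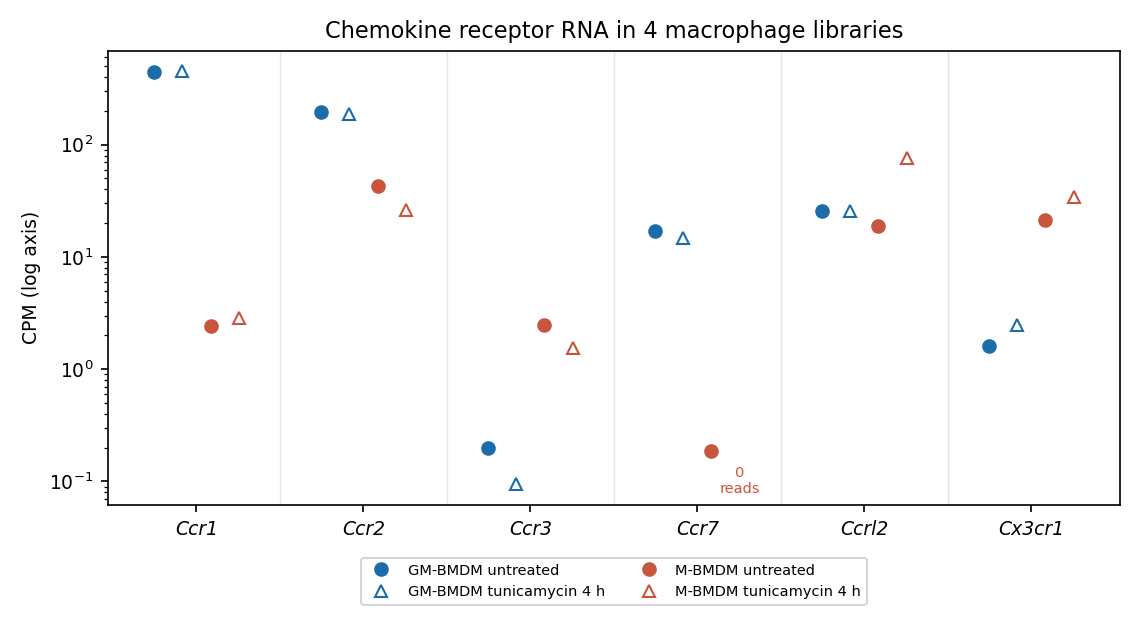
Level in CPM (log axis) of 6 chemokine receptor genes in the 4 macrophage libraries, with circles for untreated cells, triangles for 4 h of tunicamycin, blue for GM-BMDM and red for M-BMDM. Ccr1, Ccr2 and Ccr7 are higher in both GM libraries, Ccr3 and Cx3cr1 in both M libraries, and Ccr7 had 0 reads in M-BMDM with tunicamycin.

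Tunicamycin for 4 h was then compared with no treatment within each kind. In GM-BMDM 1 of the 10, Ccl17, was at least 2-fold lower and none was higher, against 0.443% of all genes lower and 0.507% in either direction. Ccl17 and Ccl22 reached the minimum level only through the GM libraries, and none of the other 8 passed 2-fold in GM-BMDM. In M-BMDM only those 8 were counted. There 1 of the 8, Ccl3, was at least 2-fold higher and none was lower, against 1.18% of all genes higher and 1.47% in either direction. The median was -0.14 over the 10 genes in GM-BMDM and 0.22 over the 8 in M-BMDM, beside 0.00 over all genes in each kind. These counts rest on single genes.

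In GM-BMDM 8 of the 10 chemokines lay below their untreated level after tunicamycin, beside a median log2 difference of 0.00 over all genes. Of the 8, Ccl17 alone passed 2-fold on the log2(CPM + 1) scale. The log2 differences of Ccl3 (-0.07) and Ccl4 (-0.03) were close in size to the 0.05 by which total counts moved that median. Ccl17 stood at 0.491 times its untreated level (0.476 to 0.507) and Ccl22 at 0.632 times (0.598 to 0.669). Ccl12 stood at 0.496 times, on 34 against 65 reads (0.318 to 0.763). Its difference in log2(CPM + 1) was -0.54, so it was not counted as lower. Ccl6 (0.898), Ccl9 (0.921) and Ccl3 (0.9496) lay slightly below 1 with intervals that did not reach it, Ccl4 (0.976) and Ccl5 (0.788) had intervals that included 1, and Ccl2 (1.21, 1.14 to 1.28) and Ccl7 (1.202, 1.05 to 1.37) were above 1. Scaled by total counts, the log2 difference of Ccl17 was -0.97 and no chemokine passed 2-fold. Markers of several cell types lay below their untreated level in the same library: 6 of 7 dendritic cell markers compared (median -0.85, 2 at least 2-fold), 4 of 5 neutrophil markers (median -0.73, 1 at least 2-fold) and 10 of 12 macrophage markers (median -0.10). The class II regulator Ciita stood at 0.279 times (0.255 to 0.305) and the class II gene H2-Ab1 at 0.553 times. The part of these markers was not tested.

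In M-BMDM 6 of the 8 chemokines that reached the minimum level in both kinds lay above their untreated level after tunicamycin. The median log2 difference of the 8 was 0.22, beside 0.00 over all genes. Ccl3 alone passed 2-fold. It stood at 2.09 times its untreated level (1.98 to 2.21) and its neighbour Ccl4 at 1.90 times (1.73 to 2.08). Ccl6 and Ccl9, which lie close by on the same chromosome, each stood at 0.638 times (0.623 to 0.653 and 0.627 to 0.649). All 12 macrophage markers were below 0 in this comparison too, with a median of -0.40 and a summed level of 54942 CPM untreated and 34744 CPM with tunicamycin, and their part was not tested. Ccl2 (1.44, 1.09 to 1.91) and Ccl7 (1.47, 1.01 to 2.15) lay above 1, while the intervals of Ccl5 (1.08), Ccl12 (1.13), Ccl17 (2.21, 0.361 to 23.2) and Ccl22 (3.97, 0.823 to 37.8) included 1. At 5 and 9 reads after tunicamycin, a change in the last 2 was not detectable at this depth.

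**Figure D4:**
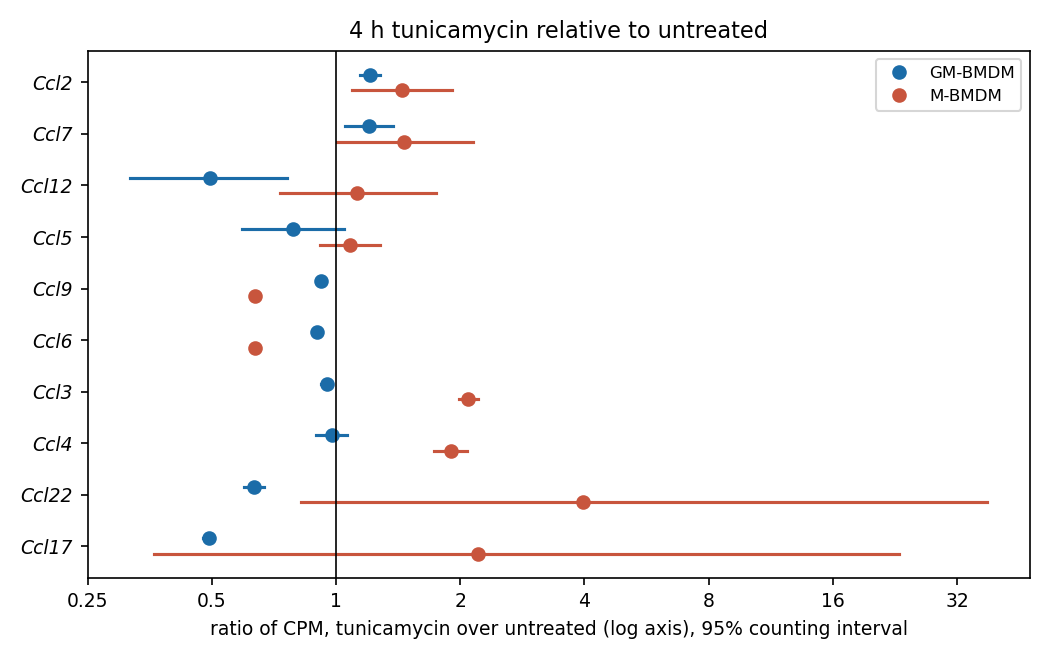
Ratio of CPM after 4 h of tunicamycin over untreated for each gene (log axis; lines are 95% counting intervals), GM-BMDM in blue and M-BMDM in red. Ccl3 and Ccl4 lie near 2 in M-BMDM and near 1 in GM-BMDM, and Ccl17 lies at 0.491 in GM-BMDM.

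The responses were subtracted gene by gene, GM minus M, which leaves no degree of freedom for a test. The difference in log2(CPM + 1) was -1.13 for Ccl3 and -0.92 for Ccl4, and 0.49 for Ccl6 and 0.53 for Ccl9. Over all genes 1.38% had a difference of at most -1 and 0.208% of at least 1. Those of Ccl2 (-0.12) and Ccl7 (-0.09) were near 0. The difference for Ccl17, -1.11, came mostly from GM-BMDM, with responses of -1.02 in GM-BMDM and 0.09 in M-BMDM. The M-BMDM value rests on 2 and 5 reads, which the added 1 holds near 0. For log2 ratios without the added 1, the counting error of the Ccl17 difference was 1.21.

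No chemokine passed the additive fit for an effect of tunicamycin common to both kinds. By edgeR's quasi-likelihood test 0 of the 10 were called, as were 0 of 11049 genes (0%), with 1137 genes at an unadjusted p under 0.05 and 52 (0.471%) called by DESeq2. The lowest adjusted p of the 10 was that of Ccl17 (-0.96 ± 0.21 SE, adjusted p = 0.32). Without the filter on low values, edgeR's test called Ccl17 (-0.95, adjusted p = 0.043) among 101 genes. Ccl17 had only 2 and 5 reads in M-BMDM, so its values in this fit rest on the GM libraries. They cannot show an effect common to both kinds. Of 22 regulators of chemokine transcription listed 21 were compared, and 1 (Ddit3) was at least 2-fold higher after tunicamycin in GM-BMDM, against 0.0634% of all genes, and 5 in M-BMDM, against 1.18%. In M-BMDM these included Jun (2.94 times), a subunit of AP-1, and Klf4 (5.60 times). None of them passed the fit over both kinds.

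In LLC cells 2 of the 10 chemokines were expressed. Ccl3, Ccl4, Ccl12 and Ccl22 had 0 reads in all 5 libraries, where 3 reads would correspond to 0.177 to 0.198 CPM. Ccl6 had 1 read, in stressed M medium, and Ccl17 had 2, in the untreated library. Ccl5 had 3 to 6 reads and Ccl9 2 to 5 reads per library. Among these 10 genes, the LLC RNA was therefore almost all Ccl2 and Ccl7, which lie side by side. Among the receptors, Ccr1, Ccr2 and Ccr3 had 0 reads in every LLC library.

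Ccl2 RNA was highest in untreated LLC cells and stood below that level in each conditioned medium. It stood at 219 CPM untreated, 106 CPM in unstressed GM medium, 145 CPM in stressed GM medium, 83.0 CPM in unstressed M medium and 81.5 CPM in stressed M medium. Relative to untreated cells the ratio was 0.482 (0.454 to 0.512) in unstressed GM medium and 0.660 (0.626 to 0.697) in stressed GM medium. In M medium it was 0.379 (0.355 to 0.405) unstressed and 0.372 (0.349 to 0.396) stressed. LLC cells thus held less Ccl2 RNA in all 4 media than untreated, and less in M medium than in GM medium.

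Ccl7 was low in M medium and not in GM medium. It stood at 11.1 CPM untreated, 11.2 CPM in unstressed GM medium and 15.5 CPM in stressed GM medium, but at 4.58 and 4.44 CPM in unstressed and stressed M medium. The ratio to untreated cells was 1.01 (0.812 to 1.26) in unstressed GM medium and 1.40 (1.146 to 1.714) in stressed GM medium, against 0.414 (0.309 to 0.549) and 0.401 (0.301 to 0.529) in M medium. Ccl2 exceeded Ccl7 per length by 13.9 times in untreated cells (11.9 to 16.4), 12.8 times in unstressed M medium and 12.9 times in stressed M medium. In GM medium this ratio was 6.65 (5.68 to 7.83) unstressed and 6.57 (5.76 to 7.52) stressed, with intervals that do not overlap those of the other 3 libraries.

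**Figure D5:**
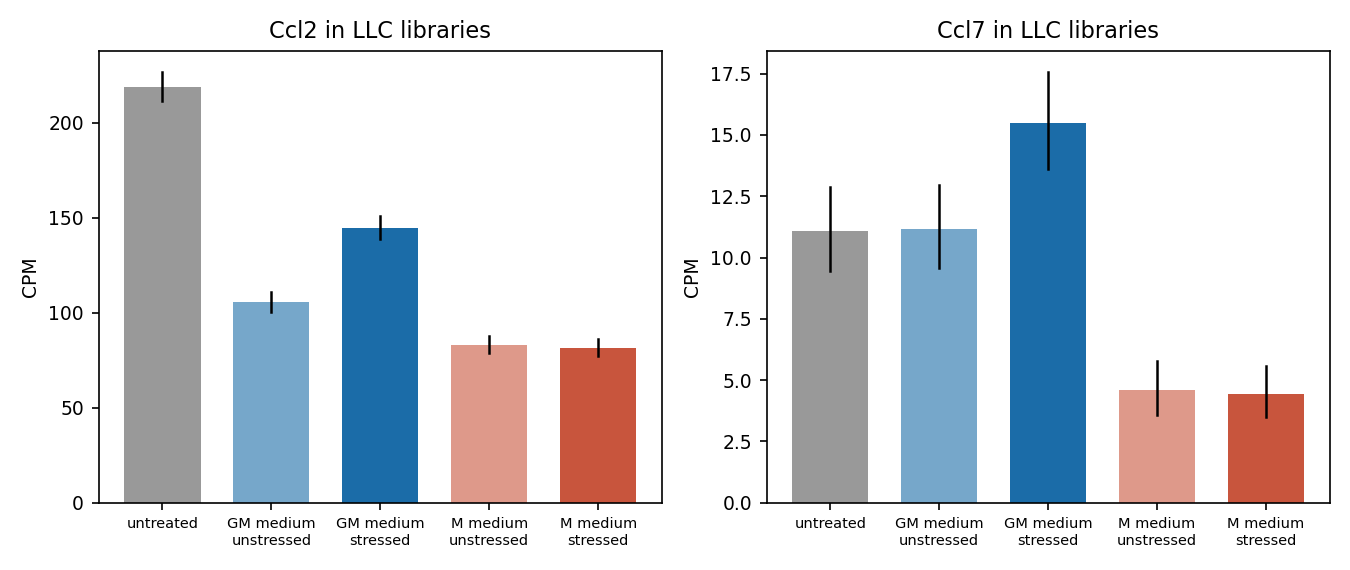
Level of Ccl2 and of Ccl7 in CPM in the 5 LLC libraries (bars from 0; lines are 95% counting intervals), with grey for untreated, blue for GM medium, red for M medium and paler bars for unstressed medium. Ccl2 stands at 219 CPM untreated and between 81.5 and 145 CPM in the media, and Ccl7 is below 5 CPM in both M media and above 11 CPM in the other 3 libraries.

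By the 2-fold rule, of the 2 chemokines compared 1 was lower in unstressed GM medium (1.93% of all genes lower, 2.97% in either direction), 2 in unstressed M medium (1.4% and 1.9%), 0 in stressed GM medium (3.89% in either direction) and 2 in stressed M medium (2.14% and 3.36%). These comparisons share the untreated library. Between GM and M medium 1 chemokine, Ccl7, was higher in GM medium, both unstressed (0.125% of all genes higher, 0.188% in either direction) and stressed (0.206% and 0.259%). The ratio of GM to M medium was 2.44 (1.84 to 3.26) for Ccl7 and 1.27 (1.18 to 1.37) for Ccl2 unstressed, and 3.49 (2.69 to 4.59) and 1.77 (1.66 to 1.90) stressed.

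Stressed and unstressed medium of the same macrophage kind were compared next. Stressed over unstressed GM medium, Ccl2 stood at 1.37 times (1.28 to 1.46) and Ccl7 at 1.39 times (1.14 to 1.69). The same ratios in M medium were 0.982 (0.909 to 1.06) and 0.968 (0.691 to 1.36), with intervals that include 1. Neither chemokine passed 2-fold in either kind of medium, against 0.518% of all genes in GM medium and 0.554% in M medium. The difference between the kinds, 0.48 for each gene in log2(CPM + 1), was not tested. For log2 ratios without the added 1, its counting error was 0.07 for Ccl2 and 0.28 for Ccl7. Over all genes 0.313% had a difference of at least 1 and 0.125% of at most -1.

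The additive fit over the 5 LLC libraries had terms for medium, kind of medium and stress. Its medium term compares unstressed M medium with none, and by edgeR's quasi-likelihood test both chemokines fell, against 18.1% of all genes (35.2% in either direction): Ccl2 by a log2 fold change of -1.55 ± 0.08 (SE, adjusted p = 1.2e-84) and Ccl7 by -1.47 ± 0.24 (adjusted p = 1.5e-08). DESeq2 gave -1.54 (adjusted p = 5.5e-05) and -1.43 (0.023) and called 11.1% of its genes. Coded instead as the mean of the 4 media against none, a choice made after the first values were seen, edgeR's medium term was -1.14 for Ccl2 (adjusted p = 3.8e-72) and -0.55 for Ccl7 (adjusted p = 0.01), against 23.9% of all genes that fell (46.7% in either direction). DESeq2 with that coding called Ccl2 and not Ccl7 (adjusted p = 0.37), against 9.35% of genes that fell (18.9% in either direction). For the kind of medium both rose with GM medium in edgeR's test, against 2.23% of all genes (4.83% in either direction), Ccl7 by 1.56 ± 0.18 (adjusted p = 7.6e-15) and Ccl2 by 0.59 ± 0.06 (adjusted p = 2.1e-18). DESeq2 did not call Ccl2 (adjusted p = 0.43) and gave no adjusted p for Ccl7, against 0.944% of its genes called.

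With stressed medium Ccl2 rose in edgeR's test (0.23 ± 0.06 SE, adjusted p = 0.0019) and Ccl7 did not pass (0.29 ± 0.18, adjusted p = 0.25), against 12.9% of all genes that rose (23.8% in either direction). DESeq2 did not call Ccl2 (adjusted p = 0.76), against 7.51% of its genes called. The spread that edgeR estimated for LLC genes was 4.233% (coefficient of variation) and was taken wholly from the trend over genes, with 1 residual degree of freedom, which sets the size of these p-values. The untreated library is assumed to vary like the others.

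Other chemokines and growth factors that act on monocytes gave a mixed picture in LLC cells. Of 13 listed 4 were compared, and by edgeR's test 3 fell in the medium term, unstressed M medium against none, beside 18.1% of all genes that fell (35.2% in either direction): Ccl25 (-1.11 ± 0.18 SE, adjusted p = 1e-08), Cx3cl1, which encodes fractalkine (-0.85 ± 0.14, adjusted p = 4e-08), and Csf1, the macrophage growth factor (-0.36 ± 0.08, adjusted p = 1.8e-05). Csf1 stood at 202 CPM untreated, at 232 and 255 CPM in unstressed and stressed GM medium, and at 144 and 233 CPM in unstressed and stressed M medium. Only the unstressed M library was thus below untreated for Csf1, unlike Ccl2. Cx3cl1 stood at 35.0 CPM untreated, at 26.2 and 27.2 CPM in unstressed and stressed GM medium, and at 19.6 and 21.2 CPM in unstressed and stressed M medium. Like Ccl2, Cx3cl1 thus lay below the untreated level in each medium.

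Of the 22 regulators of chemokine transcription 18 were compared in LLC cells, and by edgeR's test 4 rose and 6 fell in the medium term, beside 17.1% and 18.1% of all genes (35.2% in either direction). Those that fell included Jun (-0.91 ± 0.08 SE, adjusted p = 5.5e-27) and Nfkbia, the NF-kB inhibitor that is also an NF-kB target (-0.67 ± 0.08, adjusted p = 1e-16). Jun stood at 148 CPM untreated and 79.2 to 88.4 CPM in the 4 media, so that, like Ccl2, it lay below the untreated level in all of them. Between the kinds of medium 2 regulators rose with GM medium, beside 2.23% of all genes (4.83% in either direction). They were Cebpb (0.67 ± 0.13 SE, adjusted p = 2.8e-05 by edgeR's test) and Junb (0.40 ± 0.08, adjusted p = 8e-05). By the same test Cebpb was among those that fell in the medium term (-1.01 ± 0.16, adjusted p = 2e-09). It also fell with stressed medium (-0.88 ± 0.13, adjusted p = 3.7e-10), whereas Junb rose (0.31 ± 0.08, adjusted p = 0.0011).

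The genes whose profile over the libraries lay closest to each chemokine were named by the root mean square distance of centred log2(CPM + 1). Over the 4 macrophage libraries the closest to Ccl6 was Mmp8 (distance 0.09), to Ccl2 Clec9a (0.05), to Ccl3 Slc7a11 (0.07), to Ccl9 Ldhb (0.04) and to Ccl22 Plet1 and Gpr171 (0.17 each), among 9427 genes. Clec9a stood at 0.134 and 0.379 CPM in untreated and treated M-BMDM, against 2.28 and 3.29 CPM for Ccl2. At such low levels the added 1 shrinks differences, so a small distance does not mean equal ratios. For Ccl17 the closest gene, Spint1, lay at 0.40, farther off than for the other chemokines searched in macrophages. Over the 5 LLC libraries the closest to Ccl2 was Il1rl1 (0.19) and to Ccl7 Adamts7 (0.23) and Mmp9 (0.24), among 9674 genes.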

How the data were processed

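RNA sequencing counts of 4 macrophage and 5 LLC libraries were analysed, 1 per group, grouped by title. Counts per gene and FPKM were deposited by the authors, per the file headers. FPKM recomputed from count, length and total was within 5.0e-07 (LLC) and 4.9e-06 (BMDM) of the deposited values. Cutadapt 1.15, HISAT2 and TopHat2 2.1.0 are named, with no role, per the submitters' processing notes. No source used here gives the counter, its strand setting or the build. Coordinates equalled GENCODE M21 (GRCm38) for 21604 of 21817 shared LLC gene IDs (99.0%). A line-end character in the last LLC column was stripped, and those columns hold counts and FPKM like the others.

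CPM was computed from the deposited counts with TMM library sizes (edgeR 4.0.16, R 4.3.3), per table, so levels were compared within a table. Ratios are of CPM without a pseudocount, with Clopper-Pearson intervals (scipy 1.17.1). Differences are log2(CPM + 1). Additive models were tested with edgeR's quasi-likelihood F test, adjusted over all genes tested (Benjamini-Hochberg, 0.05), with DESeq2 1.42.0 as an alternative, and were tested on simulated data. SE is the absolute log2 fold change over the square root of F. Other alternatives were normalization, pseudocount, the filter, the fold, the samples in the fit and the coding of the medium term. Promoters were aligned with Biopython 1.88. The text names all 10 chemokines and, from fixed lists, up to 4 genes per comparison by largest difference, the nearest profiles, and some further list members chosen after their values were seen. One list member is not reported here. The members and lists were chosen with earlier results of these data known.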

Additional observations from a re-analysis of the deposited data

Results flagged for a closer look

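Ccl3 was singled out because its ratio after tunicamycin lay on opposite sides of 1 in the 2 kinds of macrophage, with counting intervals that did not reach 1. The difference of responses, GM minus M, was -1.13 on the log2(CPM + 1) scale. In GM-BMDM Ccl3 stood at 0.9496 times its untreated level (0.920 to 0.980) and in M-BMDM at 2.09 times (1.98 to 2.21). In GM-BMDM the log2 difference was only -0.07, and -0.02 with total counts in place of TMM, and the intervals cover counting error between single libraries only. The difference itself was not tested.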

How the results depend on the processing

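Of 85 alternative values of the counts of chemokines and of the median differences of responses, 76 stayed the same or within 1.5 times. With total counts in place of TMM the count changed by tunicamycin in GM-BMDM went from 1 to 0. At a fold of 1.5 it went to 2 in GM-BMDM and from 1 to 4 in M-BMDM, and in LLC cells from 0 to 1 for stressed GM medium against untreated and from 1 to 2 for GM against M stressed medium. Without the filter the tunicamycin fit called 1 chemokine (Ccl17, through the GM libraries) in place of 0, and 101 genes in place of 0 (DESeq2 called 52). DESeq2 called 0 chemokines for the kind of medium in place of 2, 0 for stress in place of 1, and, with the medium term as the mean of the 4 media, 1 in place of 2. Genes called by DESeq2 against edgeR numbered 1027 against 3936 for medium (1994 with the mean of the 4 media), 36 against 540 for kind and 482 against 2658 for stress. DESeq2 reversed the tunicamycin value of Ccl22, 0.38 (adjusted p = 1) against -0.52 in edgeR, neither called. The cause was not tested. Scaling moved the median of all genes by at most 0.0978. The coding of the medium term was added after seeing the data. With 1 library per group no replicate could be left out. No paired analysis was possible because each group holds 1 library. Depth limits Ccl12 and, in M-BMDM, Ccl17 and Ccl22.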

Other observations

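Genes listed for trimming chemokines also differed between the kinds of macrophage, in both directions. Dpp4, a peptidase that removes the first residues of several chemokines, stood at 16.05 CPM in untreated GM-BMDM, 4.24 CPM with tunicamycin, and 0.242 and 0.308 CPM in M-BMDM. It was at 0.264 times its untreated level after tunicamycin in GM-BMDM (0.223 to 0.312), in the library in which Ccl17 also passed 2-fold. Mmp12, a macrophage protease known to cleave CC chemokines, stood at 11202 and 10734 CPM in GM-BMDM and at 263 and 289 CPM in M-BMDM, a ratio of 42.6 untreated (41.8 to 43.5). Of the 8 genes listed for chemokine RNA decay and processing, 1 (Dpp4) reached the minimum level only through the GM libraries. Of the other 7, 1 (Mmp12) rose and 5 fell in GM-BMDM by edgeR's quasi-likelihood test, beside 26.3% and 24.4% of all genes. The 5 that fell included the protease Mmp9 (-0.89 ± 0.17 SE, adjusted p = 0.004).

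Ccrl2, a receptor that binds chemerin without signalling, stood at 25.5 and 25.6 CPM in GM-BMDM and at 19.0 CPM untreated and 76.3 CPM with tunicamycin in M-BMDM. Its ratio in M-BMDM was 4.02 (3.71 to 4.37), in the same library in which Ccl3 passed 2-fold. Csf1 stood at 45.0 and 52.5 CPM in GM-BMDM and at 5.05 and 12.2 CPM in M-BMDM. Between Ccl22 and Ccl17 lies Cx3cl1, which stood at 3.48 and 1.74 CPM in GM-BMDM and at 0.456 and 0.450 CPM in M-BMDM. Ccl11, which lies among Ccl2, Ccl7 and Ccl12, had 0 reads in the 4 macrophage libraries.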
